A study of Mus musculus with 16 samples.

Results

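The genes described here are those that mark the cells lining blood vessels, together with the angiogenic receptors those cells carry. They were chosen by symbol: Tie1, Tek, Pecam1, Cdh5, Kdr, Flt1, Eng, Esam, Cldn5 and Emcn. Of these 10 genes, 9 had a row among the 16094 genes of the deposited table, and Tek was not analysed here. RNA was measured in 16 tumours formed in mice by B16R2L, a mouse melanoma line, with 4 tumours in each of 4 groups. These were tumours with a hairpin against Mdk (shMdk) given anti-PD1, shMdk tumours given IgG2a, tumours with a non-target hairpin (shCtrl) given anti-PD1, and shCtrl tumours given IgG2a. Mdk encodes midkine, a secreted growth factor, and PD1 is an inhibitory receptor of T cells. Anti-PD1 was clone RMP1-14 at 10 mg/kg per the labels' protocols, and IgG2a was its control antibody. Dosing began at a tumour volume of 100 mm3 and ran 2 times a week for 2 weeks. All tumours shared the parental line, the knockdown rested on 1 hairpin against Mdk, and the hairpins were carried by the implanted cells. The line and the host are both mouse, so their reads were not told apart here. The labels give neither the strain, sex nor age of the mice.

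Endothelial cells form new vessels in response to vascular endothelial growth factor (VEGF), which signals mainly through the receptor Kdr (VEGFR2), while Flt1 (VEGFR1) binds the ligand tightly and can act as a decoy. The angiopoietins bind the receptor Tek (Tie2), whose orphan partner Tie1 modulates it, and together these stabilise or loosen mature vessels. Cdh5 (VE-cadherin), Pecam1 (CD31), Esam and Cldn5 hold neighbouring cells together, Emcn (endomucin) coats the surface of veins and capillaries, and Eng (endoglin) is a co-receptor for BMP9 and TGF-beta. Pecam1 is also present on leukocytes and platelets, and Eng and Flt1 on some macrophages and stromal cells.

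Many endothelial promoters are bound by ETS family factors, whose sites share the core GGAA. Promoter sequence before the gene start was matched by symbol for 7 of the 10 genes, from RefSeq on build GRCm38.p6. The promoters of 4 genes are shown because they span the range of behaviour described below: Tie1 was the gene with the largest difference, Flt1 and Emcn varied together between tumours, and Eng varied apart from the others. GGAA and its reverse complement TTCC are in capitals, and bases that any GENCODE transcript counts as exon are left out. The Tie1 stretch is chr4:118490062-118490099 on the minus strand, Flt1 is chr5:147726012-147726261 on the minus strand, Emcn is chr3:137340828-137341066 on the plus strand, and Eng is chr2:32646345-32646594 on the plus strand.
Tie1: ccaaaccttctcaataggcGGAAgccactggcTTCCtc
Flt1: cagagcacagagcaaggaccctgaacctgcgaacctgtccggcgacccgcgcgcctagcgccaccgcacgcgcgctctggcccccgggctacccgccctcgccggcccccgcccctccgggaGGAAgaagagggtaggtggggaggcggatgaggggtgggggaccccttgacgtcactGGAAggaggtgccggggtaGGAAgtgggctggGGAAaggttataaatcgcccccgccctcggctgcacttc
Emcn: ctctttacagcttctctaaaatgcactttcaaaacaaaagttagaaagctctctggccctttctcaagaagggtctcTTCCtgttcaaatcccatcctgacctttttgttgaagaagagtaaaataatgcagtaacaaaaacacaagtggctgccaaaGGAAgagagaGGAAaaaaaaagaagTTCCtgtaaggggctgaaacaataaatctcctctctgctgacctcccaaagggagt
Eng: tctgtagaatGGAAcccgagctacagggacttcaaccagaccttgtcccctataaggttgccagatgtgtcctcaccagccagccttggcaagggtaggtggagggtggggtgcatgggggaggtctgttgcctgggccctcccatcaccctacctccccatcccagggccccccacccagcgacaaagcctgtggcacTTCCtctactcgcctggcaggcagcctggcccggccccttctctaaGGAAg

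In the full 250 bases before the RefSeq start, GGAA on either strand was found 7 times for Tie1, 4 times each for Kdr, Flt1 and Emcn, 3 times for Eng and 2 times for Tek. The Cldn5 window had 0 matches. Among 32851 windows of that length from 27025 genes, 93.4% held at least 1 match, 33.4% held 4 or more, and 3.82% held 7 or more. The longer form CAGGAA, which contains GGAA, occurred 2 times for Tek, 2 times for Emcn and 1 time for Tie1, against 25.7% of all windows with a match. AGGAAG, which also contains GGAA, occurred 2 times each for Flt1, Eng and Emcn and 1 time for Tie1, against 29.5% of all windows. TATAAA was found in the Flt1 window, 1 time, and in 12.4% of all windows. These matches describe the letters of the windows and say nothing of binding.

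Libraries read the 3′ ends of polyadenylated transcripts, so 1 transcript gives 1 tag whatever its length. Values are normalised reads, which are read counts divided by the authors' size factors. Recovered depth ran from 5686405 to 8886334 reads per tumour, and 15508 to 16014 genes had a read. Mdk averaged 211 ± 106 normalised reads in shMdk tumours and 873 ± 206 in shCtrl tumours under anti-PD1 (SD, n = 4 each), a log2 fold change of -2.17 ± 0.36 (SE; limma adjusted p = 0.0017). Under IgG2a it averaged 199 ± 89.3 in shMdk tumours and 862 ± 248 in shCtrl tumours. Gm42418 stood at 3.17% of the total for tumour 1 of the shMdk IgG2a group, 4.47% for tumour 2 of the shCtrl anti-PD1 group and 0.880% to 1.56% elsewhere. In 5 libraries (shMdk anti-PD1 tumour 1, shMdk IgG2a tumours 3 and 4, shCtrl IgG2a tumours 1 and 2), genes with GC-rich 3′ ends read relatively high, with a slope of 0.0898 to 0.179 log2 units per 10% GC. Of these, shMdk anti-PD1 tumour 1 alone was given anti-PD1. Hairpin fold changes under anti-PD1 without the 5 are therefore those without that tumour. Under IgG2a, leaving out the 5 keeps shMdk tumours 1 and 2 and shCtrl tumours 3 and 4. The labels name no batch, and tumour numbers follow accession order and pair nothing.

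All 9 genes had reads in 16 of 16 tumours, and all passed the filter of a mean of at least 5 normalised reads that 14672 genes met. Of 25 further genes that mark endothelium in general, 24 were in the table, and Clec14a was the gene among them that lacked reads in some tumour. The summed level of the 9 genes ran from 1279 to 2434 normalised reads in shMdk anti-PD1 tumours, 1040 to 1722 in shMdk IgG2a tumours, 999 to 1485 in shCtrl anti-PD1 tumours and 936 to 1463 in shCtrl IgG2a tumours. In bulk tumours, fewer cells of a type and less RNA per cell cannot be told apart.

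Under anti-PD1, 3 of the 9 blood endothelium genes were higher in shMdk than in shCtrl tumours: the receptor Tie1 (2.92-fold), the adhesion molecule Pecam1 (2.37-fold) and VE-cadherin, Cdh5 (2.04-fold). None was called lower. In the same comparison 9 of 10 leukocyte and macrophage markers and 5 of 7 fibroblast markers were called higher, with summed levels given at the end, and their part in the result was not tested. Across all 14672 genes tested, 5.93% were called in this comparison, 4.93% higher and 0.995% lower. The 9 genes had a median log2 fold change of 0.73, against -0.02 over all genes, and 8 of the 9 had a positive value. The call rule was an adjusted p under 0.05 in limma, with Benjamini-Hochberg adjustment over all genes tested.

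**Figure D1:**
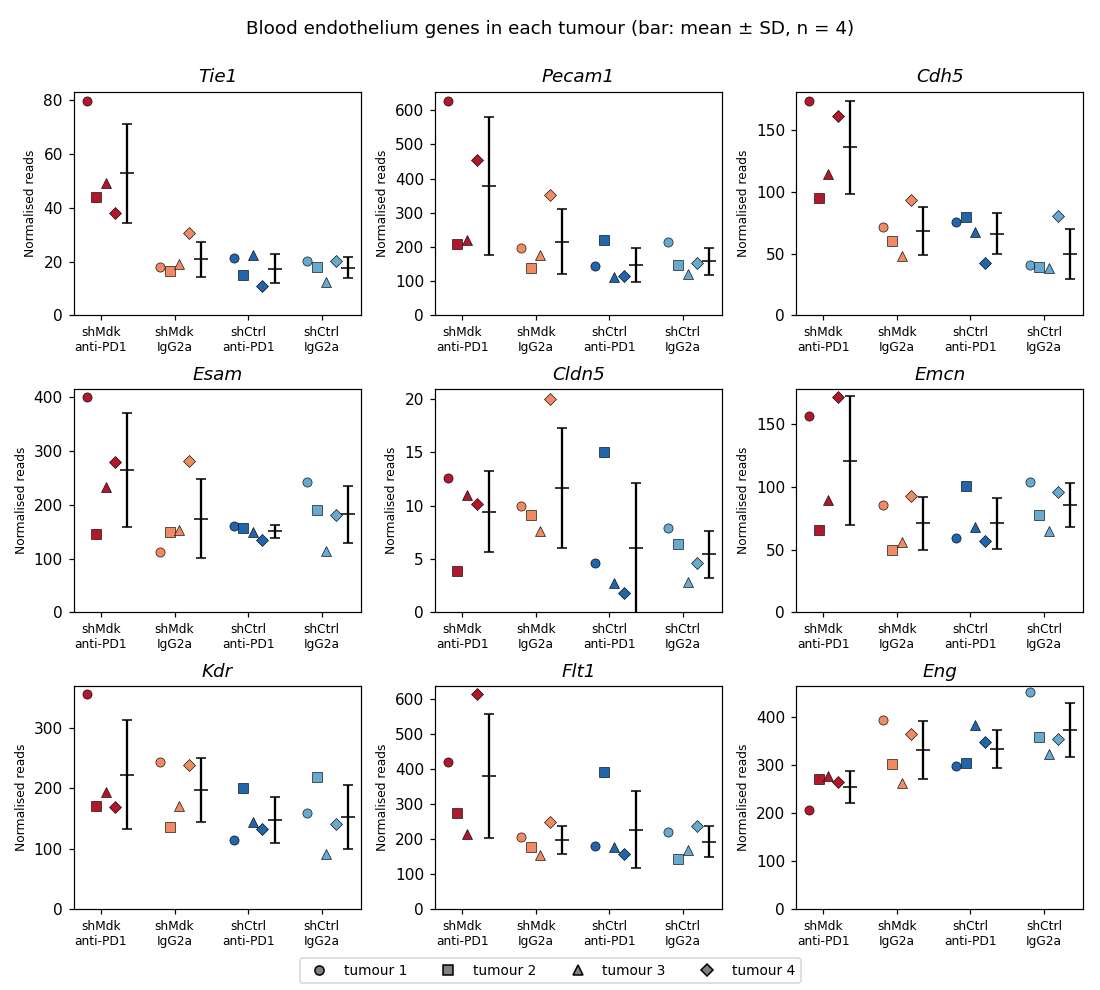
Normalised reads of the 9 blood endothelium genes (vertical axes, each starting at 0) in the 16 tumours, grouped along the horizontal axis by hairpin and antibody; each symbol is 1 tumour and the bar beside each group is the mean ± SD (n = 4). The 4 shMdk anti-PD1 tumours lie above the 4 shCtrl anti-PD1 tumours for Tie1 and Cdh5 and below them for Eng.

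Tie1, the receptor tyrosine kinase that pairs with Tie2, lies at chr4:118471191-118490061 (GENCODE, GRCm38, minus strand; the other genes are placed on the same build). It had 79.7, 44.1, 49.2 and 38.1 normalised reads in shMdk tumours given anti-PD1 and 17.8, 16.4, 18.96 and 30.5 in those given IgG2a. It had 21.2, 15.0, 22.3 and 10.8 in shCtrl anti-PD1 tumours and 20.3, 18.1, 12.4 and 20.3 in shCtrl IgG2a tumours. Each shMdk anti-PD1 tumour was above every tumour of the other 3 groups, and the ranges of those 3 overlapped. The log2 fold change of shMdk over shCtrl under anti-PD1 was 1.55 ± 0.32 (SE; limma adjusted p = 0.0072), with a 95% confidence interval of 0.87 to 2.22. A two-sided exact permutation test of the means gave p = 0.0286, the smallest that 4 against 4 tumours allow. Leaving out each of the 8 tumours in turn gave log2 fold changes of 1.33 to 1.68, and the call held in 8 of 8 fits. The last 500 bases of Tie1 are 55.6% GC, the highest share of the 9 genes, and shMdk anti-PD1 tumour 1, with the highest Tie1 value, was one of the 5 libraries that read GC-rich ends high. The same tumour was highest in its group for 6 of the 9 genes, among them Cldn5 (55.0% GC), Cdh5 (39.0% GC) and Kdr (35.0% GC). The part of GC content in these values was not tested. Without those 5 libraries the Tie1 difference was 1.33 (limma adjusted p = 0.0443), the same fold change as without shMdk anti-PD1 tumour 1 alone.

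Kdr and Flt1, the receptors for VEGF, did not pass the test in any comparison. Kdr (chr5:75932827-75978458, minus strand) had 357, 171, 193 and 168 normalised reads in shMdk tumours given anti-PD1 and 244, 136, 172 and 239 in those given IgG2a. It had 114, 201, 145 and 132 in shCtrl anti-PD1 tumours and 160, 220, 91.3 and 141 in shCtrl IgG2a tumours. All 4 groups overlapped, and shMdk anti-PD1 tumour 1 stood above the rest. shMdk over shCtrl under anti-PD1 gave a log2 fold change of 0.54 ± 0.29 (SE; limma adjusted p = 0.358), with an interval of -0.07 to 1.15.

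Flt1 (chr5:147561604-147726011, minus strand) had 421, 274, 216 and 613 normalised reads in shMdk tumours given anti-PD1 and 207, 177, 155 and 248 in those given IgG2a. It had 179, 392, 178 and 159 in shCtrl anti-PD1 tumours and 222, 143, 168 and 236 in shCtrl IgG2a tumours. A single shCtrl anti-PD1 tumour, tumour 2, overlapped with the shMdk anti-PD1 tumours, and it was also the tumour with the most Gm42418. The log2 fold change under anti-PD1 was 0.73 ± 0.31 (SE; limma adjusted p = 0.222), and 1.03 without that tumour (limma adjusted p = 0.0456), where the result passed the threshold. Soluble and membrane-bound forms of Flt1, which differ in their 3′ ends, were not told apart in a table with 1 value per gene.

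Eng (chr2:32646595-32682669, plus strand), which assists signalling by BMP9 and TGF-beta, was the gene of the 9 with a negative value under anti-PD1. It had 206, 271, 277 and 265 normalised reads in shMdk tumours given anti-PD1 and 394, 303, 263 and 365 in those given IgG2a. It had 299, 305, 382 and 348 in shCtrl anti-PD1 tumours and 453, 359, 323 and 354 in shCtrl IgG2a tumours. The 4 shMdk anti-PD1 tumours were all below the 4 shCtrl anti-PD1 tumours, by a narrow margin. A log2 fold change of -0.39 ± 0.16 (SE; limma adjusted p = 0.200) under anti-PD1 did not pass the threshold over all genes, and the exact permutation test of this 1 gene gave p = 0.0286. Without each tumour in turn it ran from -0.44 to -0.29, with 0 of 8 fits past the threshold.

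The junction genes Cdh5 and Pecam1 were called higher in shMdk tumours under anti-PD1, and both calls were close to the threshold. Cdh5 (chr8:104101625-104144511, plus strand), the cadherin of endothelial adherens junctions, had 174, 94.99, 114 and 162 normalised reads in shMdk tumours given anti-PD1 and 71.2, 60.03, 48.3 and 93.6 in those given IgG2a. It had 75.4, 79.6, 67.9 and 42.2 in shCtrl anti-PD1 tumours and 40.5, 39.4, 38.0 and 80.3 in shCtrl IgG2a tumours. The shMdk anti-PD1 tumours were above every other tumour, the nearest being shMdk IgG2a tumour 4. The log2 fold change under anti-PD1 was 1.03 ± 0.30 (SE; limma adjusted p = 0.0495; interval 0.40 to 1.65).

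Pecam1 (chr11:106654217-106750628, minus strand), an adhesion molecule at endothelial contacts, had 628, 208, 219 and 455 normalised reads in shMdk tumours given anti-PD1 and 196, 138, 177 and 352 in those given IgG2a. It had 144, 219, 113 and 114 in shCtrl anti-PD1 tumours and 214, 147, 121 and 153 in shCtrl IgG2a tumours. Tumours 1 and 4 of the shMdk anti-PD1 group were far above the shCtrl anti-PD1 tumours, while tumours 2 and 3 lay at the level of shCtrl anti-PD1 tumour 2. Its log2 fold change was 1.24 ± 0.35 (SE; limma adjusted p = 0.0431; interval 0.51 to 1.98), and the exact permutation test gave p = 0.0571.

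Leaving out 1 tumour at a time changed how many of the 9 genes were called under anti-PD1, as the plot of fits with each tumour left out shows. Pecam1 stayed past the threshold in 3 of 8 such fits, with log2 fold changes of 0.94 to 1.48. Cdh5 stayed past it in 2 of 8, with 0.83 to 1.18. With shMdk anti-PD1 tumour 1 or 4 left out, or shCtrl anti-PD1 tumour 1, 3 or 4, 1 of the 9 genes was called, and it was Tie1. With shMdk anti-PD1 tumour 3 left out, 2 were called, and with shCtrl anti-PD1 tumour 2 left out, 4 were, Flt1 being the addition. Without the 5 libraries that read GC-rich ends high, Pecam1 had a log2 fold change of 0.94 (limma adjusted p = 0.102) and Cdh5 of 0.90 (limma adjusted p = 0.132). These fold changes repeat those without shMdk anti-PD1 tumour 1, the one library of the 5 in this comparison, so they are no separate check. Cdh5 also missed the threshold, with limma adjusted p of 0.0502 to 0.0523, with a pseudocount of 0.5, no filter, a mean of at least 20, TMM scaling and without the 2 libraries high in Gm42418. Pecam1 also missed it in a fit of the 8 anti-PD1 tumours alone (limma adjusted p = 0.0627).

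**Figure D2:**
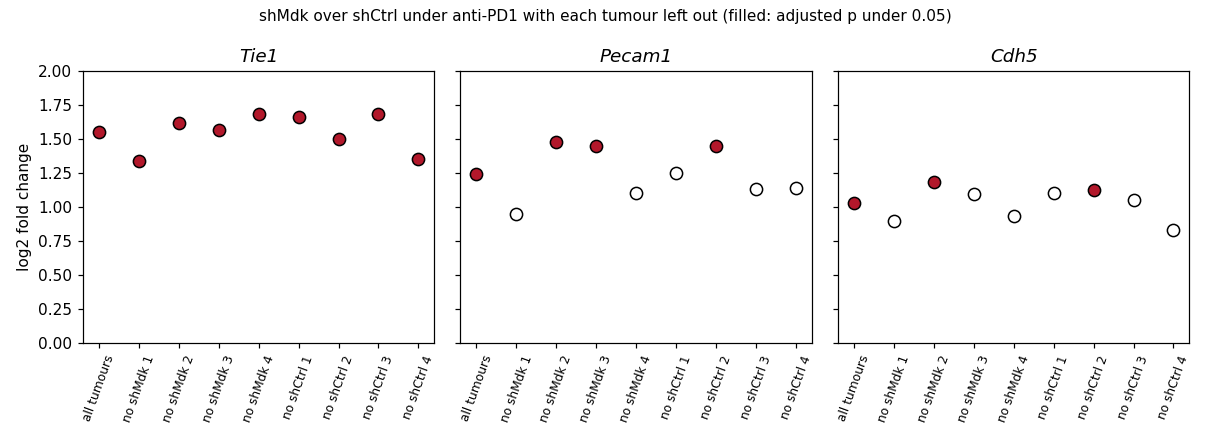
Log2 fold change of shMdk over shCtrl under anti-PD1 (vertical axis) for Tie1, Pecam1 and Cdh5, with all tumours and with each anti-PD1 tumour left out in turn (horizontal axis, by hairpin and tumour number); filled points have a limma adjusted p under 0.05. Tie1 is filled in all 8 fits that leave out a tumour, Pecam1 in 3 and Cdh5 in 2.

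Esam, Cldn5 and Emcn did not pass the test under anti-PD1. Esam (chr9:37528078-37538319, plus strand), an adhesion molecule of tight junctions, had 401, 146, 233 and 279 normalised reads in shMdk tumours given anti-PD1 and 112, 150, 154 and 282 in those given IgG2a. It had 161, 158, 149 and 135 in shCtrl anti-PD1 tumours and 243, 191, 114 and 181 in shCtrl IgG2a tumours. The shCtrl anti-PD1 tumours were close together (SD 11.7) and the shMdk anti-PD1 tumours spread widely (SD 106), with tumour 2 inside the shCtrl range. Between the hairpins the log2 fold change was 0.72 ± 0.30 (SE; limma adjusted p = 0.204).

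Emcn (chr3:137341067-137432185, plus strand), the sialomucin of venous and capillary endothelium, had 156, 65.6, 89.8 and 172 normalised reads in shMdk tumours given anti-PD1 and 85.7, 50.02, 55.9 and 92.5 in those given IgG2a. It had 58.9, 101, 67.9 and 56.6 in shCtrl anti-PD1 tumours and 104, 77.8, 64.7 and 96.0 in shCtrl IgG2a tumours. Tumours 1 and 4 of the shMdk anti-PD1 group were above all others, and tumours 2 and 3 were within the range of the remaining groups. Between the hairpins under anti-PD1 the log2 fold change was 0.69 ± 0.31 (SE; limma adjusted p = 0.240).

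Cldn5 (chr16:18776847-18778262, plus strand), a claudin of endothelial tight junctions, was thinly covered, with 42 reads over the 4 shMdk anti-PD1 tumours, 46 over the shMdk IgG2a tumours, 20 over the shCtrl anti-PD1 tumours and 21 over the shCtrl IgG2a tumours. Its normalised values were 12.6, 3.92, 11.02 and 10.2 in shMdk anti-PD1 tumours and 4.598, 15.0, 2.79 and 1.80 in shCtrl anti-PD1 tumours. Under IgG2a they were 10.0, 9.09, 7.58 and 19.97 for shMdk and 7.88, 6.39, 2.85 and 4.62 for shCtrl. The groups overlapped under either antibody. The log2 fold change under anti-PD1 was 0.81 ± 0.54 (SE; limma adjusted p = 0.488), with an interval of -0.33 to 1.95. With a tumour left out it was 0.48 to 1.32, the highest without shCtrl anti-PD1 tumour 2 (limma adjusted p = 0.130), and it was called in 0 of 8 fits.

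In all, 7 of the 9 genes had an unadjusted limma p under 0.05 in the anti-PD1 comparison of hairpins, as did 2617 of all 14672 genes. Eng was among the 7, with a negative value. Groups did not overlap for 3 of the 9, Tie1 and Cdh5 upward and Eng downward. Among all genes tested, 13.4% had groups that did not overlap in this comparison, 8.23% upward and 5.20% downward.

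Under IgG2a, 0 of the 9 genes were called between shMdk and shCtrl tumours, where 1.74% of all genes were called (1.63% higher, 0.109% lower). An unadjusted limma p under 0.05 was found for 0 of the 9 and for 1422 of all genes. edgeR and DESeq2 also called 0 of the 9. The log2 fold changes ran from -0.29 for Emcn to 0.95 for Cldn5, with a median of 0.21 against -0.01 over all genes. Tie1 averaged 20.9 ± 6.47 normalised reads in shMdk IgG2a tumours and 17.8 ± 3.74 in shCtrl IgG2a tumours (SD, n = 4 each), with an interval for the log2 fold change of -0.47 to 0.88. Cdh5 averaged 68.3 ± 19.3 in shMdk IgG2a tumours and 49.6 ± 20.5 in shCtrl IgG2a tumours, with an interval of -0.14 to 1.11. The groups overlapped for each of the 9 genes, whereas 6.09% of all genes had groups that did not, 4.16% upward and 1.93% downward.

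With both antibodies averaged, Tie1 and Cdh5 were called higher in shMdk tumours, 2 of 9 genes, where 8.40% of all genes were called, 6.23% higher and 2.17% lower. The log2 fold changes were 0.88 ± 0.23 for Tie1 (SE; limma adjusted p = 0.0207) and 0.76 ± 0.21 for Cdh5 (SE; limma adjusted p = 0.0306), and Pecam1 lay just past the threshold on the other side at 0.81 ± 0.25 (SE; limma adjusted p = 0.0508). Pecam1 was called with TMM scaling (limma adjusted p = 0.0485), edgeR (adjusted p = 0.0324) and DESeq2 (adjusted p = 0.0077), 3 of 9 genes in each. No gene was called when tumour 1 of the shMdk anti-PD1 group was left out (0 of 9), and 4 were when shCtrl anti-PD1 tumour 2 was, with Cldn5 among them (limma adjusted p = 0.0360). Tie1 alone was called, 1 of 9, without shMdk anti-PD1 tumour 4, shMdk IgG2a tumour 1 or 4, shCtrl anti-PD1 tumour 4, or shCtrl IgG2a tumour 2 or 3. Without the 5 libraries that read GC-rich ends high it was 0, with Tie1 at 0.72 (limma adjusted p = 0.177).

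Anti-PD1 was then compared with IgG2a within each line. In shMdk tumours, 0 of the 9 genes were called by limma, where 0.0341% of all genes were (0.0273% higher, 0.00682% lower). An unadjusted limma p under 0.05 was found for 5 of the 9, with Eng downward among them, and for 1826 of all 14672 genes. edgeR called 0 of the 9, and DESeq2 called 1, Tie1, with a log2 fold change of 1.34 (adjusted p = 0.0155). The limma value for Tie1 was 1.28 ± 0.32 (SE; adjusted p = 0.173), and over all alternatives its adjusted p ran from 0.0155 to 0.368. Tie1 and Cdh5 (0.98 ± 0.30, SE; limma adjusted p = 0.233) were higher in all 4 anti-PD1 tumours than in any IgG2a tumour, while 8.51% of all genes had groups that did not overlap, 4.42% upward and 4.10% downward. Flt1 had a log2 fold change of 0.85, Pecam1 of 0.73, Emcn of 0.70, Esam of 0.59 and Kdr of 0.14. Cldn5 and Eng had negative values, -0.29 and -0.37.

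In shCtrl tumours, anti-PD1 gave 0 called genes of the 9 and 0% of all genes. None of the 9 had an unadjusted limma p under 0.05, 556 of all genes did, edgeR called 0 genes and DESeq2 called 7, none of them among the 9. The log2 fold changes ran from -0.28 for Emcn to 0.45 for Cdh5, with a median of -0.13. The groups overlapped for each of the 9 genes, and 2.11% of all genes had groups that did not, 0.981% upward and 1.13% downward. Their 95% intervals reached at most 1.07 upward, for Cdh5, and -1.28 downward, for Cldn5.

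The test of whether the anti-PD1 difference itself differed between shMdk and shCtrl tumours called 0 of the 9 genes and 0% of all genes. At an unadjusted limma p under 0.05 there were 2 of the 9 and 506 of all genes, and edgeR and DESeq2 called 0 genes. Those 2 were Tie1, with a difference of 1.34 ± 0.45 (SE; limma adjusted p = 0.9998), and Emcn, with 0.98 ± 0.43 (SE). The rise of Tie1, Pecam1 and Cdh5 under anti-PD1 is therefore not shown to depend on the antibody.

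**Figure D3:**
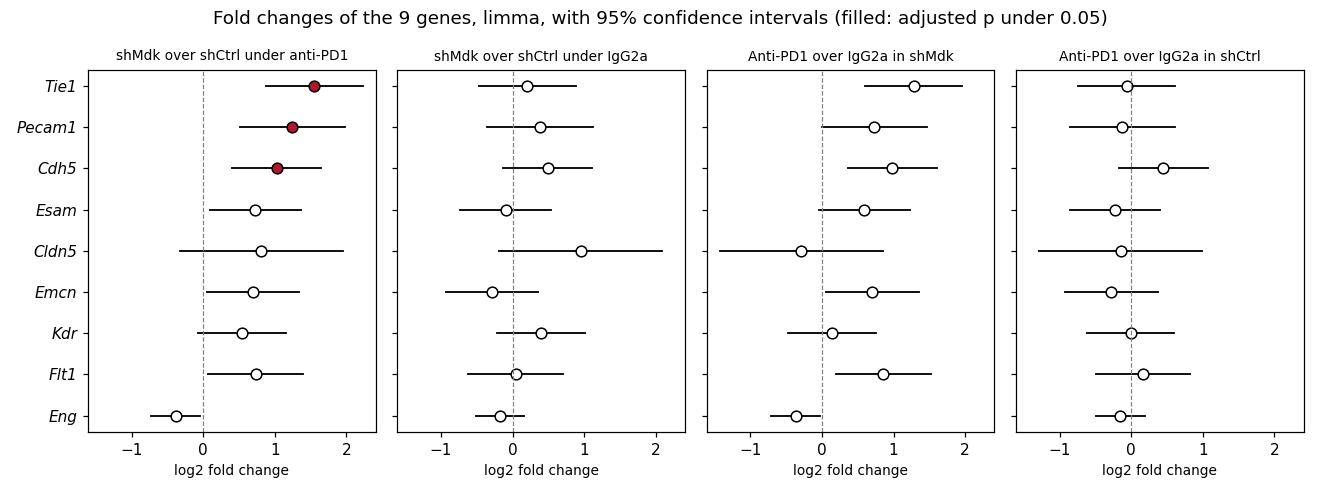
Log2 fold changes of the 9 genes (horizontal axes) in 4 pairwise comparisons, 1 per panel, from limma on all 16 tumours; lines are 95% confidence intervals and filled points have an adjusted p under 0.05. Filled points are Tie1, Pecam1 and Cdh5 in the comparison of hairpins under anti-PD1, and the intervals in shCtrl tumours (right panel) all include 0.

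Tumours of 1 group differed from each other in most of these genes at once. In the shMdk anti-PD1 group, tumour 1 was the highest for 6 of the 9 genes and tumour 2 the lowest for 5. In the shMdk IgG2a group, tumour 4 was highest for 7, and in the shCtrl anti-PD1 group tumour 2 was highest for 6. In the shCtrl IgG2a group, tumour 1 was highest for 5 and tumour 3 lowest for 8. The tumours named as highest were all among the 5 libraries that read GC-rich ends high, except shCtrl anti-PD1 tumour 2, which was high in Gm42418. shCtrl IgG2a tumour 3 had the lowest GC slope, -0.126. Of the 5 libraries, shMdk IgG2a tumour 3 went the other way and was lowest for 4 genes, and shCtrl IgG2a tumour 2 was highest for 1. The part of these library traits in the covariation was not tested.

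The covariation was described with Pearson correlations of log2 values after each gene was centred on its group mean, over 16 tumours that share depth scaling and 4 group means. The 36 pairs had r of -0.08 to 0.89, with a median of 0.56. The 28 pairs without Eng were all positive, from 0.12 to 0.89, with a median of 0.63, and Pecam1 with Emcn was the closest pair. Eng with the other 8 genes gave -0.08 to 0.14. Eng and Tie1 were also set against the mean log2 level of the other genes, with Eng left out of that mean for both. Eng stood at 1.06 ± 0.67 in shMdk anti-PD1 tumours and 2.06 ± 0.31 in shMdk IgG2a tumours (SD, n = 4 each). In shCtrl tumours it stood at 2.37 ± 0.51 under anti-PD1 and 2.49 ± 0.20 under IgG2a. Tie1 stood at -1.41 ± 0.50, -2.16 ± 0.16, -2.14 ± 0.60 and -2.10 ± 0.05 in the same order of groups.

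**Figure D4:**
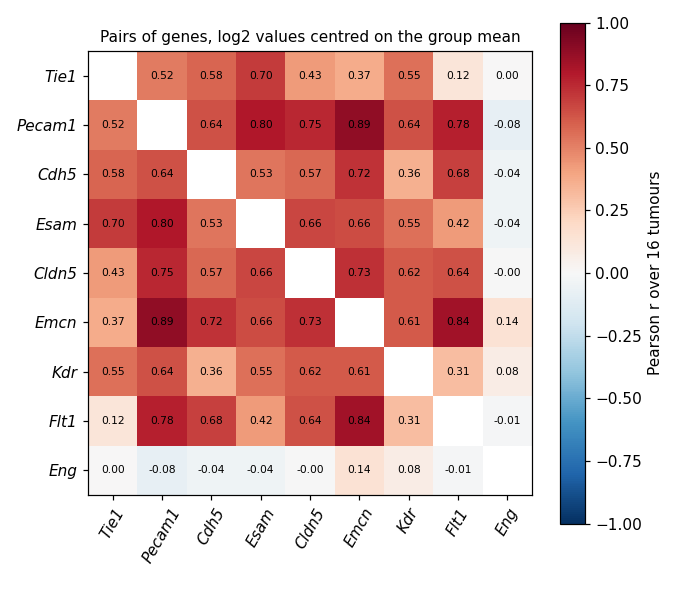
Pearson correlation of each pair of the 9 genes over 16 tumours (colour scale from -1 to 1; value in each square), from log2 values centred on the group mean; the diagonal is blank. All squares between genes other than Eng are positive, and the row of Eng lies between -0.08 and 0.14.

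The genes closest to the mean profile of the 9 genes, among 10818 candidates and by the same centred correlation, were Il34 (r = 0.93, rho = 0.92), Mmrn2 (r = 0.93, rho = 0.89), Cdh13 (r = 0.93, rho = 0.91), Prrx1 (r = 0.92, rho = 0.93) and S100a6 (r = 0.92, rho = 0.95). Lama4, Bcl6b, Cd34, Adgrf5 and Cavin3 came next, with r of 0.92 to 0.88. Without the 2 tumours farthest from the median of the profile, the 10 correlations were 0.83 to 0.92. Mmrn2 and Cd34 are on the list of further endothelial markers, and Prrx1 is a transcription factor of mesenchymal cells. Without centring, Prrx1 came first (r = 0.95), and 7 of the first 10 genes were shared with the centred list.

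Other vessel genes were taken from lists chosen with earlier results of these data known. Of 101 tested genes on 10 vessel lists, 14 were higher and 1 was lower in shMdk tumours under anti-PD1, and 81 had positive values, with a median log2 fold change of 0.44. The called share was 14.9%, against 5.93% of all genes. Under IgG2a 3 were higher and 1 was lower, 3.96% against 1.74% of all genes, and 0 to 3 were called with a tumour of those groups left out. In both comparisons of anti-PD1 with IgG2a 0 were called. Without the 5 libraries that read GC-rich ends high, 9 were called under anti-PD1. With a tumour left out the count was 7 to 17, and it was below 10 without shMdk anti-PD1 tumour 1 (7) or 4 (9) or shCtrl anti-PD1 tumour 4 (8). Klf2, Icam1, Vcam1, Cd40, Ccl2, Car4 and Cd36 were called in 8 of 8 such fits and also without the 5 libraries.

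Of 23 further pan-endothelial genes, 2 were called higher under anti-PD1, 22 had positive values, and the median log2 fold change was 0.61. The called share of 8.70% was near the 5.93% of all genes. Podxl, a sialomucin, averaged 44.4 ± 7.34 normalised reads in shMdk tumours and 22.2 ± 4.83 in shCtrl tumours under anti-PD1 (SD, n = 4 each; log2 fold change 0.98 ± 0.26, SE; limma adjusted p = 0.029). Icam2, an adhesion molecule of endothelium and platelets, averaged 448 ± 76.8 in shMdk tumours and 269 ± 36.2 in shCtrl tumours (0.73 ± 0.19, SE; limma adjusted p = 0.025). Podxl kept its call in 3 of 8 fits with a tumour left out and Icam2 in 4 of 8, and neither kept it without the 5 libraries that read GC-rich ends high (limma adjusted p = 0.077 and 0.078). Averaged over antibodies, 4 of 23 were called higher (17.4%, against 8.40% of all genes). With a tumour left out, Icam2 (limma adjusted p = 0.0017) kept this call in 16 of 16 fits and Podxl (limma adjusted p = 0.022) in 14. Cd93 and Mmrn2 kept it in 6 and 5. Without the 5 libraries Icam2 and Cd93 were still called (limma adjusted p = 0.034 and 0.036), and Podxl and Mmrn2 were not (limma adjusted p = 0.095 and 0.074).

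Of 13 endothelial transcription factors tested, 4 were called higher under anti-PD1, 30.8% against 5.93% of all genes. Klf2, a factor induced by blood flow, averaged 188 ± 97.4 normalised reads in shMdk tumours and 39.9 ± 12.9 in shCtrl tumours (log2 fold change 2.12 ± 0.34, SE; limma adjusted p = 0.0013), and its call held in 8 of 8 fits with a tumour left out. The ETS factor Fli1 (1.16 ± 0.30, SE), Lmo2 (1.98 ± 0.53, SE) and Hhex (2.09 ± 0.55, SE) were called with limma adjusted p of 0.028 to 0.034, and in 2 to 3 of 8 such fits, and none of these 3 was called without the 5 libraries. Averaged over antibodies, the same 4 of 13 were called higher (30.8%, against 8.40% of all genes), each in 16 of 16 fits with a tumour left out. Without the 5 libraries Klf2 kept the averaged call (limma adjusted p = 0.043). Fli1, Lmo2 and Hhex did not (limma adjusted p = 0.080, 0.054 and 0.109). These 4 factors are also made by blood cells.

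Among 9 ligands of the VEGF and angiopoietin systems and their relatives, 0 were called under anti-PD1 by limma. Vegfb, a ligand of Flt1, averaged 848 ± 100.0 normalised reads in shMdk tumours and 1152 ± 54.9 in shCtrl tumours, with groups that did not overlap (log2 fold change -0.45 ± 0.13, SE; limma adjusted p = 0.056). Among all genes, 5.20% had groups that did not overlap downward in this comparison. Vegfb was called lower when both antibodies were averaged (-0.35 ± 0.09, SE; limma adjusted p = 0.026), 11.1% of its list against 8.40% of all genes. That call held in 11 of 16 fits with a tumour left out, and not without the 5 libraries that read GC-rich ends high (limma adjusted p = 0.133). Of 18 co-receptors and partners, the integrin subunit Itgb3 was called higher under anti-PD1 (1.15 ± 0.31, SE; limma adjusted p = 0.035), and of 13 Notch and tip cell genes, the chemokine receptor Cxcr4 was (1.36 ± 0.35, SE; limma adjusted p = 0.026). These shares, 5.56% and 7.69%, were near the 5.93% of all genes, and the calls held in 3 and 4 of 8 fits with a tumour left out. Averaged over antibodies Cxcr4 was also called higher, 7.69% of its list against 8.40% of all genes. That call held in 16 of 16 fits with a tumour left out, but not without the 5 libraries (limma adjusted p = 0.059). Of 9 further junction genes 0 were called, with a median log2 fold change of 0.25.

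Of 10 genes listed for activated endothelium, 4 had a row, and Sele, Selp, Madcam1, Ackr1, Cxcl1 and Glycam1 had none. Those 4 had the largest median of the vessel lists, 2.33 under anti-PD1 and 1.46 under IgG2a. All 4 were called higher under anti-PD1, against 5.93% of all genes: Vcam1 and Icam1, which bind leukocytes, the receptor Cd40 and the chemokine Ccl2. Under IgG2a 2 of the 4 were called, against 1.74% of all genes. Vcam1 averaged 185 ± 66.9 normalised reads in shMdk tumours and 39.9 ± 19.4 in shCtrl tumours under anti-PD1, and 100 ± 28.5 in shMdk tumours and 29.3 ± 16.8 in shCtrl tumours under IgG2a, and it was called in both. Icam1 was called in both as well, with log2 fold changes of 1.14 ± 0.23 under anti-PD1 and 0.99 ± 0.23 under IgG2a (SE; limma adjusted p = 0.006 and 0.031). Under IgG2a, Vcam1 and Icam1 each kept the call in 2 of 8 fits with a tumour left out, and without the 5 libraries that read GC-rich ends high their limma adjusted p were 0.120 and 0.183. That last fit kept only tumours 1 and 2 of the shMdk IgG2a group and 3 and 4 of the shCtrl IgG2a group. Leukocytes and stromal cells also make these 4 genes.

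By vessel type, the capillary genes Car4 (3.09 ± 0.56, SE) and Cd36 (1.70 ± 0.39, SE) were called higher under anti-PD1, with limma adjusted p of 0.003 and 0.014, 2 of 7 tested (28.6%, against 5.93% of all genes). The list was mixed in direction: 4 of the 7 had positive values under anti-PD1, with a median log2 fold change of 0.41. Averaged over antibodies 3 of the 7 did, with a median of -0.51. Car4 and Cd36 were called higher there too (28.6%, against 8.40% of all genes), each in 16 of 16 fits with a tumour left out. Without the 5 libraries that read GC-rich ends high, Cd36 kept this call (limma adjusted p = 0.0052) and Car4 did not (limma adjusted p = 0.072). Cd36 was also called higher under IgG2a (1.77 ± 0.39, SE, limma adjusted p = 0.0228), 14.3% of the list against 1.74% of all genes. That call held in 5 of 8 fits with a tumour left out. The venous factor Nr2f2 was called lower under anti-PD1 (-0.57 ± 0.15, SE, limma adjusted p = 0.035) and held in 2 of 8 such fits. It was 1 of 3 tested (33.3%, against 5.93% of all genes). Of 6 arterial genes 0 were called under anti-PD1. Fbln5, an elastic fibre protein, was called lower under IgG2a (-0.85 ± 0.20, SE, limma adjusted p = 0.0373), in 2 of 8 such fits. This was 16.7% of the list, against 1.74% of all genes. Averaged over antibodies, Fbln5 (limma adjusted p = 0.0029) and Nr2f2 (limma adjusted p = 0.013) were called lower, each in 16 of 16 fits with a tumour left out. These were 16.7% of the arterial and 33.3% of the venous list, against 8.40% of all genes. Without the 5 libraries Fbln5 kept the averaged call (limma adjusted p = 0.0037) and Nr2f2 did not (limma adjusted p = 0.091). Of 4 lymphatic genes 0 were called under anti-PD1, and Flt4 (VEGFR3) had a log2 fold change of 0.72 ± 0.21 (SE; limma adjusted p = 0.0502). It was called higher averaged over antibodies (0.54 ± 0.15, SE, limma adjusted p = 0.0270), in 10 of 16 fits with a tumour left out. This was 25% of the lymphatic list, against 8.40% of all genes. Of 13 genes of pericytes and smooth muscle, which wrap vessels, Ndufa4l2 was called higher under anti-PD1 (1.57 ± 0.38, SE; limma adjusted p = 0.019), 7.69% against 5.93% of all genes, and held in 5 of 8 such fits.

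**Figure D5:**
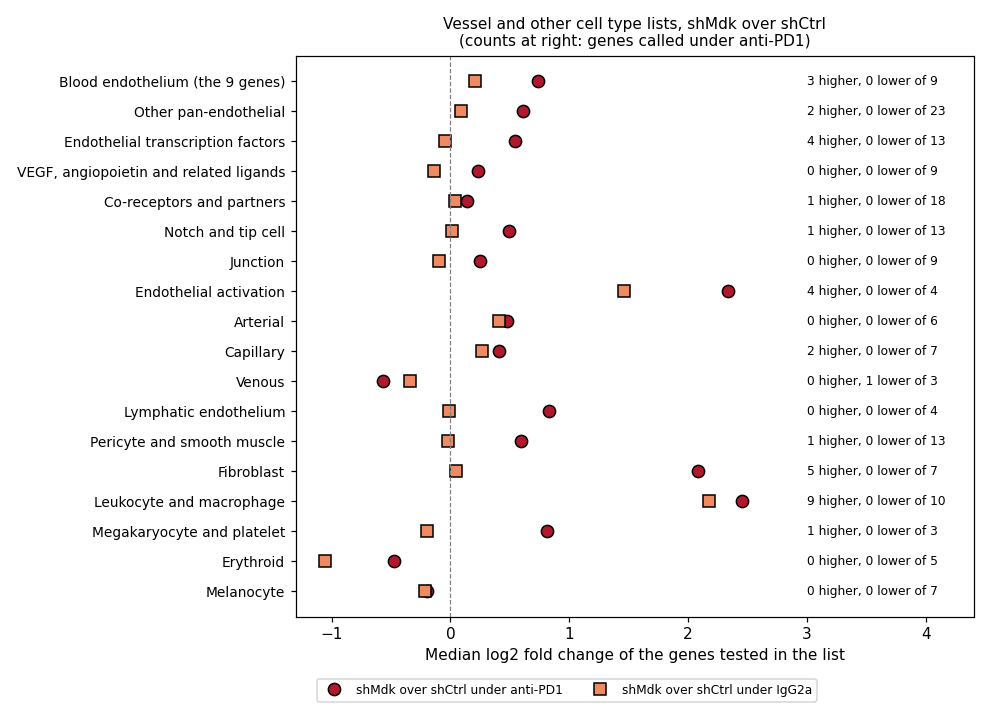
Median log2 fold change of shMdk over shCtrl (horizontal axis) over the tested genes of each list (vertical axis), under anti-PD1 (circles) and under IgG2a (squares); text at the right gives the genes called under anti-PD1. The 9 blood endothelium genes have a median of 0.73 under anti-PD1, between those of junction genes (0.25) and of leukocyte and macrophage genes (2.45).

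Markers of other cell types moved with the same comparison. Of 10 leukocyte and macrophage markers, 9 were called higher in shMdk tumours under anti-PD1 (90%, against 5.93% of all genes). Under IgG2a 3 were (30%, against 1.74% of all genes). The largest log2 fold changes under anti-PD1 were in Adgre1 (3.32), Itgam (3.19), Csf1r (2.99) and Ptprc (2.66). Csf1r and Ptprc were called in 8 of 8 fits with a tumour left out, Adgre1 in 6 and Itgam in 2, and Adgre1 and Itgam were not called without the 5 libraries that read GC-rich ends high (limma adjusted p = 0.113 and 0.0619). The 3 called under IgG2a were Ptprc (2.88), C1qb (2.17) and Cd68 (1.68), in 8, 3 and 8 of 8 fits. The summed level of the 10 markers was 3337 to 7799 normalised reads in shMdk anti-PD1 tumours, 1701 to 3730 in shMdk IgG2a tumours, 420 to 1720 in shCtrl anti-PD1 tumours and 514 to 1316 in shCtrl IgG2a tumours, and Adgre1 and Itgam were at 0 in some tumour. Of 7 fibroblast markers, 5 were called higher under anti-PD1 (71.4%, against 5.93% of all genes). Among them were the collagen genes Col3a1 (2.74), Col1a1 (2.13), Col1a2 (2.08) and Col6a3 (1.95). Col6a3 was called in 8 of 8 fits with a tumour left out, Postn in 4, Col1a1 in 3, and Col3a1 and Col1a2 in 2 each. Without the 5 libraries Col6a3 kept its call, and the limma adjusted p of the other 4 were 0.0964 to 0.173. The sums over the 7 markers were 1840 to 13989 in shMdk anti-PD1 tumours, 1303 to 2326 in shMdk IgG2a tumours, 519 to 2613 in shCtrl anti-PD1 tumours and 1190 to 2404 in shCtrl IgG2a tumours. The platelet chemokine Pf4, which macrophages also make, was called higher under anti-PD1 (2.22 ± 0.33, SE, limma adjusted p = 0.0010). It was 1 of 3 platelet genes tested (33.3%, against 5.93% of all genes). Of 5 erythroid genes 0 were called, and their sum reached 574472 in shCtrl anti-PD1 tumour 2, against 3576 to 123865 in the rest of both shCtrl groups and 7808 to 32281 in the shMdk groups. The 7 melanocyte markers summed to 107394 to 143030 in shMdk anti-PD1 tumours, 126434 to 146591 in shMdk IgG2a tumours, 134737 to 182973 in shCtrl anti-PD1 tumours and 151635 to 187437 in shCtrl IgG2a tumours, with 0 called. The part of these cell types in the values of the blood endothelium genes was not tested. Nor was it tested for the other vessel genes, Car4, Cd36, Icam2, Cd93, Cxcr4 and Itgb3 among them.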

How the data were processed

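A stranded 3′ kit took 500 ng of total RNA per tumour, per the labels' protocols. TopHat2 2.0.10 and Bowtie 1.0.0 are named beside build GRCm38 (mm10) in the submitters' processing notes, together with HTSeq, DESeq2, SAMtools 0.1.19 and FastQC 0.11.0. The deposited signal is a read count divided by the authors' DESeq2 size factor, 1 value per gene and tumour. Whole reads were recovered from it, 100% of values being whole within 0.001. Columns of samples left unused numbered 0.

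The genes and lists were chosen with earlier results of these data known. Signal was tested as log2(value + 1) with limma 3.58.1 (trend) in R 4.3.3, in 1 fit of all 16 tumours with 12 residual degrees of freedom, over 14672 genes with a mean of at least 5, with Benjamini-Hochberg adjustment in each of 6 comparisons; a call is an adjusted p under 0.05. Fold changes on this scale understate those of low genes. Single genes also had a two-sided exact permutation test of 70 arrangements. Scripts were tested on simulated data. Alternatives were pseudocounts of 0.5 and 4, no filter, a mean of at least 20, TMM scaling, edgeR 4.0.16 and DESeq2 1.42.0 on recovered reads, the tumours of a comparison alone, and leaving out libraries. P-values measure the spread between tumours, since the labels list each as its own sample. All blood endothelium genes are named; of each other list, up to 4 called genes by size, or else the 2 most abundant, with erythroid and melanocyte lists given as sums and Clec14a and Flt4 named after their values were seen. A result that the naming rule would include is not reported here.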

Additional observations from a re-analysis of the deposited data

Results flagged for a closer look

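Among 36 combinations of a blood endothelium gene and a group of 4 tumours, 3 had 1 tumour far from the other 3, by Dixon's test of the gap to the nearest tumour against the group's range; chance gives about 1 in 20. Kdr had 357 normalised reads in shMdk anti-PD1 tumour 1, against 168 to 193 in the other 3. Flt1 had 392 in shCtrl anti-PD1 tumour 2, against 159 to 179 in the other 3. Cdh5 had 80.3 in shCtrl IgG2a tumour 4, against 38.0 to 40.5 in the other 3.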

How the results depend on the processing

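No paired analysis was possible because replicate numbers follow accession order and carry no pairing from the labels. Of 1153 values of single genes under the alternatives, Mdk included, 1069 kept their direction and side of the threshold. Another 29 lost it, 13 gained it and 42 changed sign, and 0 of the sign changes were in a called value. Most of the 1069 were uncalled values that stayed uncalled, and all the losses fell among called blood endothelium genes. Under anti-PD1 the call held in 18 of 18 alternatives for Tie1, 11 of 18 for Pecam1 and 6 of 18 for Cdh5. Averaged over antibodies it held in 23 of 25 for Tie1 and 17 of 25 for Cdh5.

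Under anti-PD1, the hairpin comparison called 3 of the 9 genes, and 1 without the libraries that read GC-rich ends high (a choice made after seeing the data); that fit also called 9 further vessel genes against 15, and DESeq2 called 23, and 1310 of all genes against 870. Leave-one-out fits called 1 to 4 of the 9, 7 to 17 vessel genes and 443 to 858 of all genes. Under IgG2a the 255 calls of all genes were 449 with DESeq2, 74 without the GC libraries and 136 to 271 with a tumour left out; the 4 vessel calls were 1 in the fit of those tumours alone, 2 without the libraries high in Gm42418, 1 without the GC libraries and 0 to 3 with a tumour left out. Averaged over antibodies, the 2 calls were 3 with TMM, edgeR or DESeq2, 4 without the Gm42418 libraries, 0 without the GC libraries and 0 to 4 with a tumour left out; vessel calls went to 9 and all genes to 745 without the GC libraries, and to 16 to 22 and 923 to 1478 with a tumour left out. For anti-PD1 in shMdk tumours, DESeq2 called 1 of the 9, 6 vessel genes and 244 of all genes; 1 vessel gene each was called with a pseudocount of 4, edgeR, the fit of those tumours alone and without the Gm42418 libraries, and 0 to 1 with a tumour left out. The 5 calls of all genes there were 3 with a pseudocount of 0.5, no filter or TMM, 13 with a pseudocount of 4, 8 with edgeR, 25 in the fit of those tumours alone, 11 without the Gm42418 libraries, 1 without the GC libraries and 0 to 12 with a tumour left out. In shCtrl tumours DESeq2 called 7 genes, the fit without the Gm42418 libraries 3, and leave-one-out fits 0 to 2.

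Values that changed sign ran as follows. For anti-PD1 in shCtrl tumours without the GC libraries, they were 0.066 for Tie1, 0.064 for Pecam1, 0.35 for Kdr, 0.063 for Esam and 0.26 for Cldn5; Kdr was 0.0012 with TMM, Flt1 -0.13 without the Gm42418 libraries, and Cldn5 0.065 with edgeR and 0.055 with DESeq2. For anti-PD1 in shMdk tumours Kdr was -0.035 without the GC libraries. For shMdk over shCtrl under IgG2a, Flt1 was -0.058 and Eng 0.031 without the GC libraries, and Esam 0.084 without the Gm42418 libraries. For the difference between lines, Kdr was -0.38 without the GC libraries and Cldn5 0.33 without the Gm42418 libraries. With a tumour left out, anti-PD1 in shCtrl tumours gave -0.65 to 0.18 for Cldn5, -0.13 to 0.30 for Flt1, -0.23 to 0.18 for Kdr, -0.33 to 0.027 for Pecam1 and -0.22 to 0.13 for Tie1; anti-PD1 in shMdk tumours gave -0.45 to 0.040 for Cldn5 and -0.11 to 0.25 for Kdr; the difference between lines gave -0.47 to 0.37 for Cldn5 and -0.10 to 0.37 for Kdr; and shMdk over shCtrl under IgG2a gave -0.36 to 0.084 for Esam and -0.091 to 0.15 for Flt1. The cause was not tested. Cldn5 had the lowest depth, 20 to 46 reads per group.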
